A study of Mus musculus with 26 samples.

Results

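A group of 8 genes was followed in RNA from mouse germinal vesicle oocytes, the fully grown oocytes arrested before meiosis resumes: Pxdn, Npl, Fmo6, Fmo4, Fbxo16, Got1l1, Ptprv and Arntl2. They were chosen by their counts, which were low in Dnmt3a KO oocytes or in libraries labelled Tet3 KO; Dnmt3a itself was low in both. They are 8 of 24450 genes in the count table and 8 of 11794 that passed the filter on low counts. Because Dnmt3a KO and the libraries labelled Tet3 KO chose the genes, their values in these libraries are given as a description, without a test. Comparisons among the other groups were tested, and those that use WT share its libraries with the choice.

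Each library was made from polyadenylated RNA of a pool of 10 oocytes. WT carried the floxed low-complexity domain of Tet3 (Tet3 LCDf/f) and no Cre (n = 6). LCD KO carried Tet3 LCDf/f with Zp3-Cre (n = 7), and HD mutant carried Tet3 LCD HD Mutf/f with Zp3-Cre, where HD is not defined in the sources used here (n = 5). Dnmt3a KO was Dnmt3af/f with Zp3-Cre (n = 2), and DKO was Dnmt3af/f, Tet3 LCDf/f with Zp3-Cre (n = 2). The libraries labelled Tet3 KO were Tet3f/f with Zp3-Cre by their labels (n = 2). The 2 columns labelled as lacking Tet1, Tet2 and Tet3 held the same counts as these and were counted once. Zp3-Cre, which all groups except WT carried, is expressed in the growing oocyte and acts on floxed DNA there. None of the groups had floxed Dnmt3a without Cre, so the deletion, Cre and the mouse line cannot be told apart between Dnmt3a KO and WT. DKO and LCD KO both carried Cre and the floxed Tet3 domain.

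Dnmt3a is the enzyme that writes new DNA methylation in the growing oocyte, together with its partner Dnmt3l. Most of this methylation is laid down across the bodies of transcribed genes, and some of it marks imprinted regions. Tet3 oxidises methylated cytosine, the first step in removing the mark. The RNA of a fully grown oocyte was made during growth and is stored, since transcription has largely stopped by then. Methylation itself was not analysed here.

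The targeted genes were checked first. Dnmt3a stood at 132 and 107 CPM (read counts scaled to the library's total with TMM factors) in Dnmt3a KO, at 99.5 and 97.1 in DKO and at 142 and 104 in the libraries labelled Tet3 KO. In WT it ranged from 236 to 619 CPM with a median of 285, above all 6 of these libraries. Tet3 stood at 262 and 356 CPM in the libraries labelled Tet3 KO, within the WT range of 157 to 426 and above both WT libraries of batch 3 (157 and 219). It was 65.6 and 57 CPM in DKO and 234 and 374 in Dnmt3a KO. In LCD KO it ranged from 43.8 to 199 (median 59) and in HD mutant from 51.9 to 198 (median 71.9); the values of 164 to 199 in these groups came from batch 2, where WT 4 had 426. These 2 libraries therefore went against their label for Tet3, and they are called by the label throughout. Counts per gene do not show whether part of a transcript was missing. Total counts ran from 1838824 to 7833087 per library. The 18 oocyte markers summed to between 22200 and 69600 CPM in every library. The 12 granulosa and cumulus markers summed to 65.8 to 122 CPM in WT, 78.3 to 353 in LCD KO, 74.7 to 109 in HD mutant and 62 to 90.9 in the 3 groups low in Dnmt3a, where Foxl2 and Amhr2 were at 0 in all 6 libraries. Of these markers, Inha ran from 0 to 292 CPM, and its highest value was above the whole sum of any library outside LCD KO. Cyp19a1 (20.1 to 35.7 CPM), Nr5a2 (13.6 to 32.2) and Kitl (2.84 to 14.9) were present in every library of the study. Foxl2 and Amhr2 were low in all groups, at most 1.43 and 5.32 CPM. Markers of theca or stroma (9) summed to at most 7.4 CPM and those of blood or immune cells (8) to at most 3.68, with Adgre1, Hbb-b1 and Hba-a1 at 0 throughout. The part of other cells in the results below was not tested. In bulk RNA, fewer cells of a type and less RNA per cell cannot be told apart.

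In all, 4 of the 8 genes, Npl, Fmo6, Fmo4 and Ptprv, lie on chromosome 1 (50%), against 694 of 11492 tested genes with a RefSeq symbol (6.04%). Fmo4 and Fmo6 are next to each other among the measured genes. Pxdn lies on chromosome 12, Fbxo16 on 14, Got1l1 on 8 and Arntl2 on 6. In the GENCODE annotation of GRCm38, 7 of the 8 overlap no other gene. Ptprv, which RefSeq lists as a transcribed pseudogene, shares exon sequence with the antisense gene Gm10535, and without a stated strand setting reads of the pair cannot be separated.

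RefSeq promoters were matched for 5 of the 8 genes, all but Fbxo16, Got1l1 and Ptprv. The 4 printed here, from the 250 bases before the start in GRCm38.p6, span the range from many CpG dinucleotides, the sites that Dnmt3a methylates, to a single one. Capitals mark each CpG, and each is written 5′ to 3′ on the gene's strand.
Pxdn, chr12:29937786-29938035, plus strand: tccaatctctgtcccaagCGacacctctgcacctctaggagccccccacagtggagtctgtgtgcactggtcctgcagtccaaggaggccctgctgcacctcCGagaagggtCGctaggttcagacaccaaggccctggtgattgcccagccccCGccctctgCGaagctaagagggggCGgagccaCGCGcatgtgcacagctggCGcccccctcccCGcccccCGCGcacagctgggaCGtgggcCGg
Npl, chr1:153549715-153549964, minus strand: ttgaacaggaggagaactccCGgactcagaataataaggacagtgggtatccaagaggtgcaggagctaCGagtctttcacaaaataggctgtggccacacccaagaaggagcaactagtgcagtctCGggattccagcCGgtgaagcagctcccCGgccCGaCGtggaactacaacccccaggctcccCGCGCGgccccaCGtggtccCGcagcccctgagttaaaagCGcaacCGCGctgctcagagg
Fmo6, chr1:162937226-162937475, minus strand: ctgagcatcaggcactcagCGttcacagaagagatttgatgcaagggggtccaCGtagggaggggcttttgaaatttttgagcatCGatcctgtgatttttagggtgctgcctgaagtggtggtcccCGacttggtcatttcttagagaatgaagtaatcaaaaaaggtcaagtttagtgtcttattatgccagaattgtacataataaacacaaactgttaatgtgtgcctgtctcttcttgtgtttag
Arntl2, chr6:146805280-146805529, plus strand: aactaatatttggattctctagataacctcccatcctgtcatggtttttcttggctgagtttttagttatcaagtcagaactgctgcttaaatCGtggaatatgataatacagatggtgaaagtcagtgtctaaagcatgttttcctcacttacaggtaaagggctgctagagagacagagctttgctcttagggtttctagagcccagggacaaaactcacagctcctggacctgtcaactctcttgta

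The promoters ran from many CpG to few. Pxdn had 14 CpG in these 250 bases and Npl had 15, above the median of 6 over 32841 promoters of the table and within its quartiles of 2 and 16. Fmo6 and Fmo4 (chr1:162812550-162812799, minus strand) had 4 each, and Arntl2 had 1. As few or fewer CpG were found in 72.7% of all promoters for Pxdn, 74.6% for Npl, 44.4% for Fmo6 and Fmo4 and 18.8% for Arntl2. The GC content was 68% and 59.6% for Pxdn and Npl, 42.4% for both Fmo genes and 41.6% for Arntl2. The GC box GGGCGG occurred on either strand in Pxdn alone of the 5 and in 32.7% of all promoters. The E-box CACGTG, the letters bound by clock factors of the Arntl family, occurred in Npl alone of the 5 and in 6.02% of all. TATAAA occurred in none of the 5 and in 12.4% of all. These matches are letters in a window and no measure of binding.

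**Figure D1:**
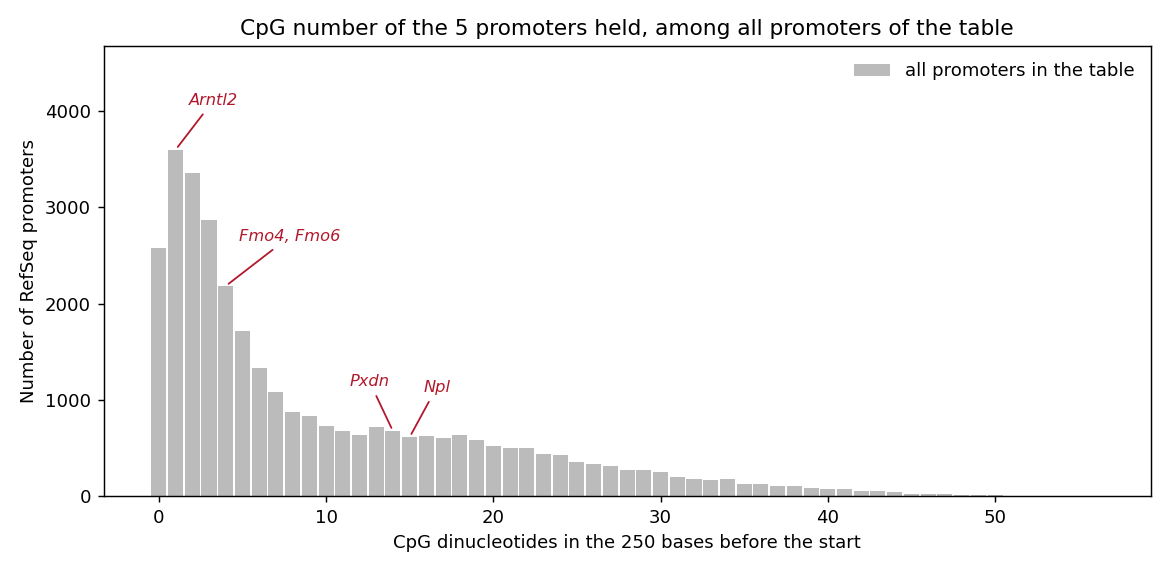
Number of RefSeq promoters (vertical axis) with each number of CpG dinucleotides in the 250 bases before the start (horizontal axis), with the bins of the 5 matched genes named. Pxdn and Npl, at 14 and 15, sit above the median of 6, and Fmo4, Fmo6 and Arntl2, at 4, 4 and 1, sit below it.

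Pxdn encodes peroxidasin, a haem peroxidase that crosslinks collagen IV in basement membranes. It had 0 counts in both Dnmt3a KO libraries and 1 and 0 counts in the libraries labelled Tet3 KO. DKO, also low in Dnmt3a, had 63 and 26 counts, or 15.8 and 8.67 CPM. WT ranged from 9.09 to 46.9 CPM with a median of 14, and LCD KO from 10.1 to 53 with a median of 18.8. The highest values were those of batch 2, where WT 4 had 46.9 and LCD KO 4 and 5 had 53 and 50.5 CPM. HD mutant stood at 22, 35.5 and 22 CPM in batch 2 and at 8.17 and 9.76 in the 2 libraries without a stated batch. Pxdn was therefore near or at 0 in 4 of the 6 libraries low in Dnmt3a, while both DKO libraries lay in or close to the WT range. Counts were summed over the 2 libraries of each group in batch 3, with 0 read as 3 counts. Pxdn was then 24.5-fold lower in Dnmt3a KO than in WT and 31.4-fold higher in DKO than in Dnmt3a KO. The 95% counting intervals reached up to a ratio of 0.0515 for the first and down to 25 for the second. The ratio of the libraries labelled Tet3 KO to WT was 0.0119 (95% counting interval 0.000297 to 0.0686, from 1 count). Counting intervals cover counting error only, and reading 0 as 3 counts leaves out the error of the other group's count.

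Npl encodes the lyase that splits sialic acid into a sugar and pyruvate. All 4 libraries of Dnmt3a KO and of the Tet3 KO label had 0 counts. DKO had 3 and 8 counts (0.754 and 2.67 CPM). WT ranged from 4.48 to 9.31 CPM with a median of 7.5. LCD KO ranged from 1.33 to 2.86 with a median of 2.46, so that all 7 libraries lay below all 6 of WT. HD mutant, at 11.3, 6.51, 5.82, 4.33 and 9.18 CPM, lay above every LCD KO library and overlapped WT. With 0 read as 3 counts, Npl of batch 3 was 17.8-fold lower in Dnmt3a KO than in WT and 20.3-fold lower under the Tet3 KO label. The counting intervals reached up to ratios of 0.0717 and 0.0629.

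Fmo6 and Fmo4 encode flavin-containing monooxygenases, which oxidise nitrogen and sulfur groups of drugs and metabolites. Fmo6 was at 4.77 and 2.14 CPM in Dnmt3a KO, 2.31 and 0.732 under the Tet3 KO label and 7.04 and 10.7 in DKO. WT lay between 21.7 and 44 CPM (median 29.4), LCD KO between 14.7 and 36.8 (median 20), and HD mutant at 24.4, 22.9, 25, 34.1 and 23.5. The 6 libraries low in Dnmt3a were thus below all 18 others. Fmo4 showed the same separation except in 2 LCD KO libraries. It stood at 4.77 and 5.78 CPM in Dnmt3a KO, 3.23 and 4.88 under the Tet3 KO label and 11.1 and 12.3 in DKO. WT lay between 19.7 and 29.1 (median 25.2), HD mutant at 26.3, 29.3, 23.6, 24.5 and 33.9, and LCD KO between 7.78 and 23.2 (median 20.2), with LCD KO 2 and 7 at 7.78 and 11.9 within or below the DKO values. The ratio of Dnmt3a KO to WT in batch 3 was 0.0921 for Fmo6 (95% counting interval 0.0572 to 0.142) and 0.227 for Fmo4 (0.157 to 0.323).

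Fbxo16 encodes an F-box protein, a class that picks substrates for ubiquitin ligases. Its counts gave 2.2 and 1.5 CPM in Dnmt3a KO, 1.38 and 0.976 under the Tet3 KO label and 8.54 and 6.34 in DKO. WT ranged from 7.21 to 14.7 CPM (median 8.73), LCD KO from 2.87 to 13.9 (median 6.67), and HD mutant stood at 7.24, 7.25, 6.07, 14.4 and 18.4. Dnmt3a KO and the labelled libraries lay below all others, whereas DKO lay within the LCD KO range. Got1l1 encodes a protein related to cytosolic aspartate aminotransferase. It stood at 2.94 and 1.71 CPM in Dnmt3a KO, 2.77 and 2.44 under the Tet3 KO label and 4.52 and 7 in DKO. Its level depended on the batch. WT and LCD KO of batch 3 had 19.8, 23.3, 25.5 and 21.2 CPM, while LCD KO of batches 1 and 2 had 2.94 to 5.32, close to the groups low in Dnmt3a. WT of batches 1 and 2 had 5.84 to 13.6, and HD mutant 14.8, 12.1, 9.66, 21.2 and 32.1.

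Ptprv, named for a receptor tyrosine phosphatase, had 0 counts in both Dnmt3a KO libraries, 4 and 1 under the Tet3 KO label and 5 and 2 in DKO. The last 4 correspond to 0.922, 0.244, 1.26 and 0.667 CPM. WT ranged from 3.51 to 6.55 CPM (median 4.93), LCD KO from 1.09 to 7.89 (median 4.78), and HD mutant stood at 6.61, 10.4, 11.1, 1.44 and 3.44. With 0 read as 3 counts, Ptprv was 13.9-fold lower in Dnmt3a KO than in WT of batch 3. The counting interval reached up to a ratio of 0.093. All of these Ptprv values rest on small counts, and the antisense overlap applies to each. Arntl2 encodes a partner of Clock in the circadian transcription factor. Its levels overlapped between the 3 groups low in Dnmt3a, at 3.3 and 5.78 CPM in Dnmt3a KO, 3.23 and 4.88 under the Tet3 KO label and 4.52 and 5.34 in DKO. In batches 1 and 3, WT had 15.5 to 32 CPM and LCD KO 10.1 to 27.9. In batch 2, WT 4 and LCD KO 4 and 5 had 1.97, 2.44 and 2.48 CPM, lower than any library low in Dnmt3a, although Dnmt3a in WT 4 was 619 CPM. HD mutant 1 to 3 of the same batch had 36.8, 19.5 and 24.1 CPM, and HD mutant 4 and 5 had 35.1 and 33.9.

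**Figure D2:**
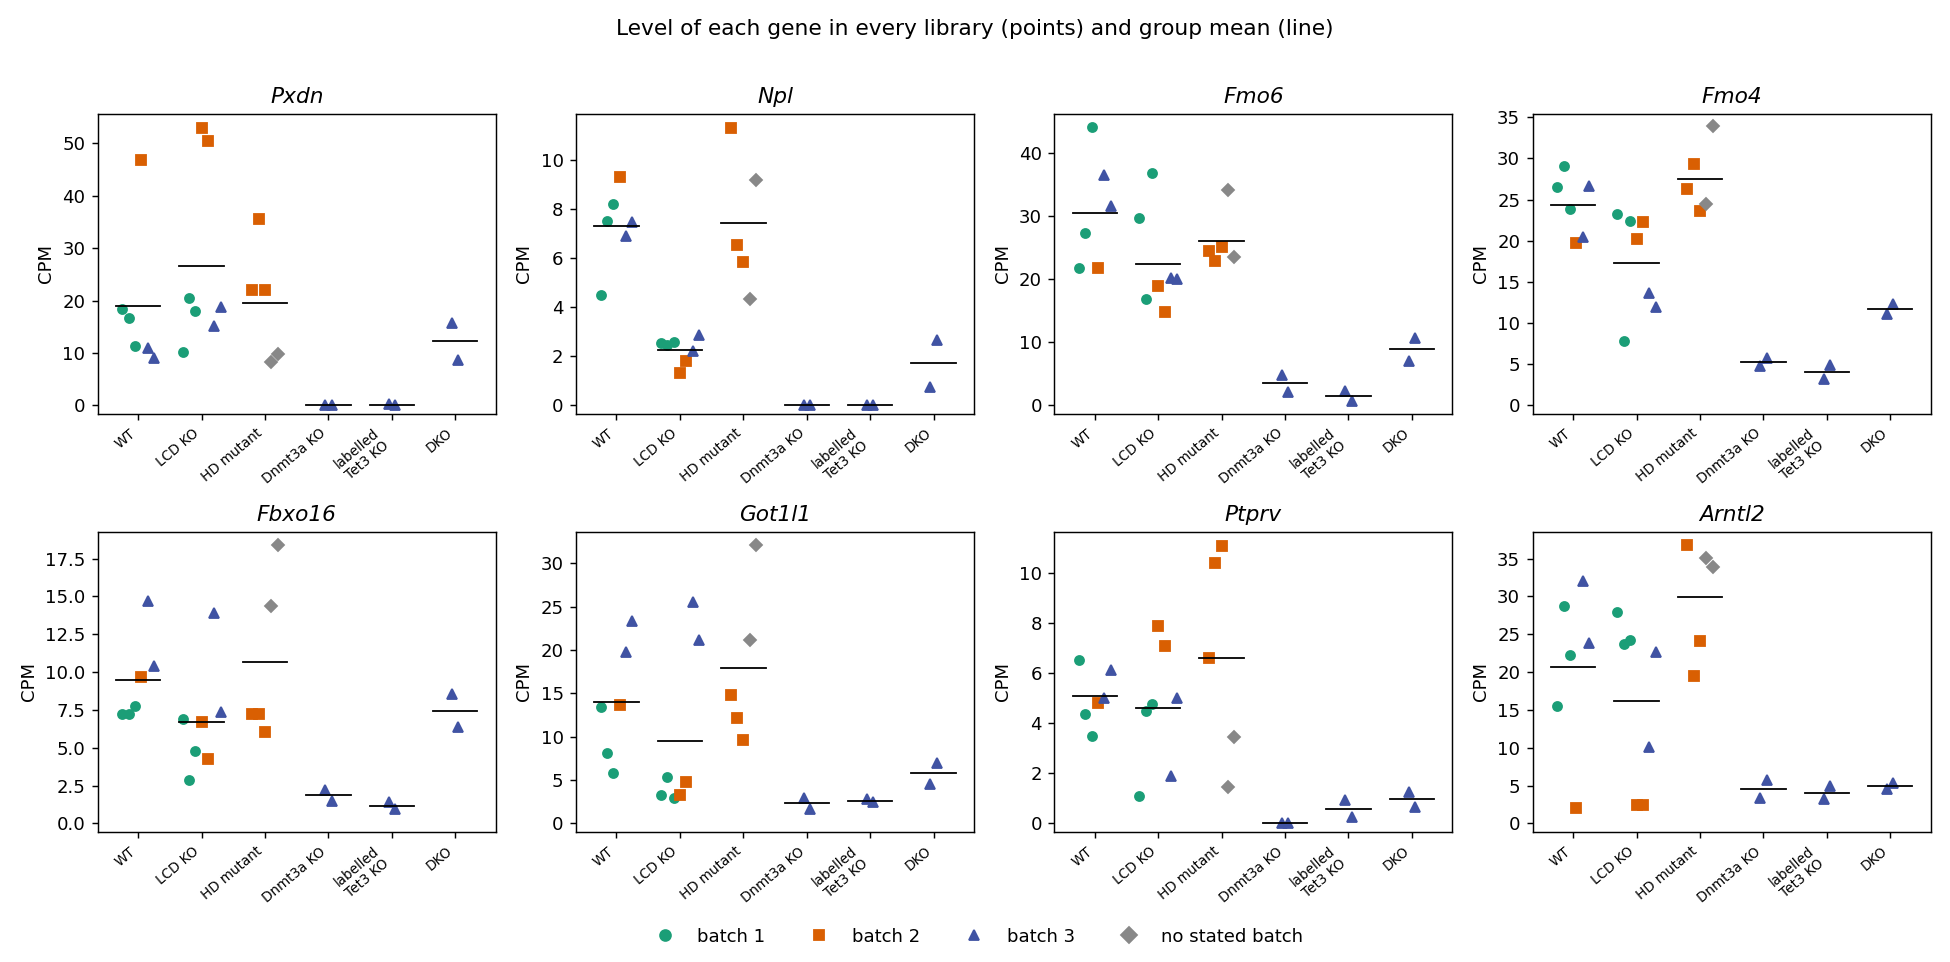
CPM of each gene (vertical axis, 1 panel per gene, each with its own scale) in every library, by group (horizontal axis); points are libraries, shaped by batch, and lines are group means. Dnmt3a KO and the libraries labelled Tet3 KO sit low in each panel, and Pxdn of DKO sits near WT. Fbxo16 of DKO sits near WT of batches 1 and 2 and below WT of batch 3, the batch of DKO. The 3 lowest Arntl2 points, of batch 2, belong to WT 4 and LCD KO 4 and 5.

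All libraries low in Dnmt3a belong to batch 3, so the levels were also compared within it. Each of the 8 genes was lower in both Dnmt3a KO libraries than in both WT libraries, a pattern held by 17% of all tested genes, and the same was true under the Tet3 KO label, where the share of all genes was 19.2%. Both shares are set beside contrasts that chose the genes and nothing is read from them. In the fit across all genes, 0.322% were called lower in Dnmt3a KO and 0.822% under the Tet3 KO label. The log2 fold changes of Dnmt3a KO against WT were -3.22 ± 0.42 (SE) for Fmo6, -1.97 ± 0.37 for Fmo4, -2.93 ± 0.45 for Fbxo16, -3.8 ± 0.52 for Got1l1 and -2.28 ± 0.41 for Arntl2. Under the Tet3 KO label they were -4.27, -2.37, -3.51, -3.57 and -2.5, and -3 for Ptprv. The pair of groups overlapped in 6 of the 8 genes. The libraries labelled Tet3 KO were lower than Dnmt3a KO in Fbxo16, as in 19.4% of all genes, and higher in Ptprv, by 5 counts against 0, as in 21.7%.

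The genes divided by how DKO stood. In batch 3, 7 of the 8 were higher in both DKO libraries than in both Dnmt3a KO libraries (20.6% of all genes), although Dnmt3a was at least as low in DKO. The exception was Arntl2, where the summed counts of DKO and Dnmt3a KO gave a ratio of 1 (0.608 to 1.65). The ratio was 2.76 (1.68 to 4.69) for Fmo6, 2.15 (1.45 to 3.22) for Fmo4, 4.32 (2.32 to 8.64) for Fbxo16 and 2.58 (1.41 to 4.95) for Got1l1. With 0 read as 3 counts, Npl was 3.89-fold and Ptprv 2.47-fold higher, and their counting intervals reached down to 2.66 and 1.53. Since Dnmt3a KO chose the genes, this difference is a description. Against WT of batch 3, DKO held 1.28 times the level of Pxdn (0.925 to 1.78), 0.612 of Fbxo16 (0.426 to 0.872) and 0.487 of Fmo4 (0.369 to 0.64). It held 0.218 of Npl (0.103 to 0.425), 0.255 of Fmo6 (0.188 to 0.339), 0.258 of Got1l1 (0.177 to 0.369), 0.178 of Ptprv (0.0673 to 0.403) and 0.177 of Arntl2 (0.119 to 0.256). Only Pxdn overlapped WT in batch 3; the other 7 lay below it, as did 20.6% of all genes.

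**Figure D3:**
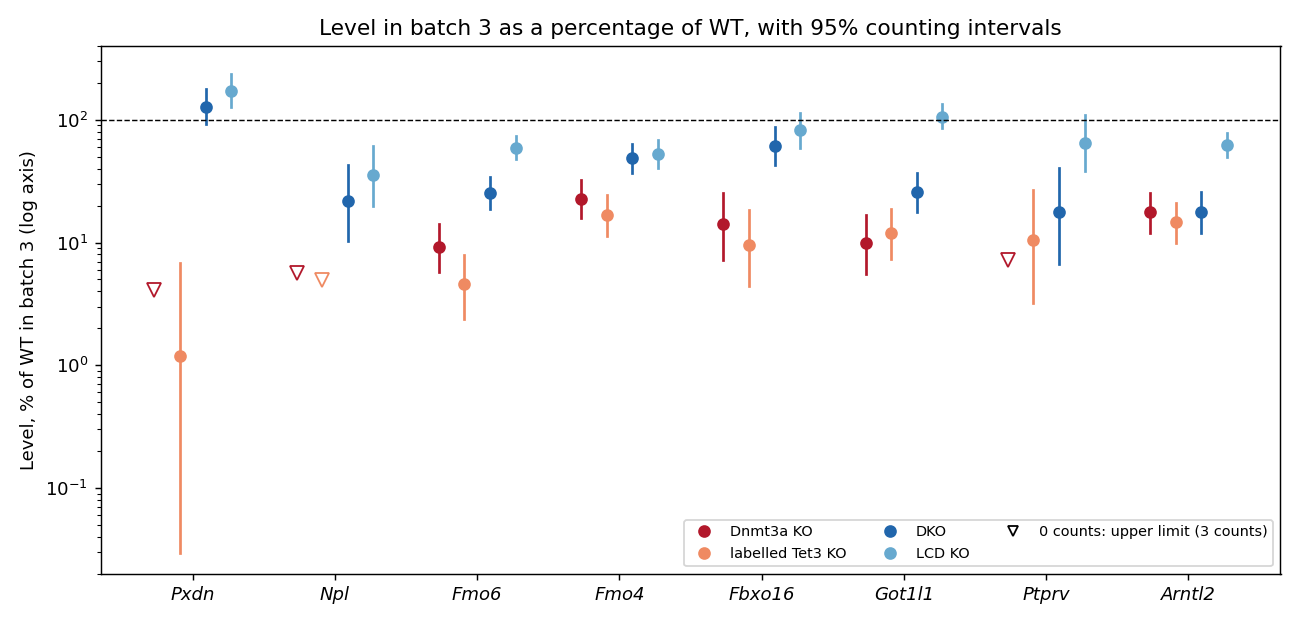
Level of each gene in batch 3 as a percentage of WT (vertical log axis), summed over the 2 libraries of each group, with 95% counting intervals; open triangles mark groups with 0 counts at the limit of 3 counts, and the dashed line is the WT level. DKO points lie above Dnmt3a KO points for all genes but Arntl2, and Pxdn of DKO lies at the WT level.

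DKO and LCD KO are the pair that differ in Dnmt3a and whose values did not choose the genes. Dnmt3a fell by 1.91 ± 0.20 on the log2 scale between them (edgeR's quasi-likelihood test, adjusted p = 2.98e-06). Arntl2 was the 1 gene of the 8 that was called lower in DKO (-2.09 ± 0.42, adjusted p = 0.0189), against 0.0763% of all tested genes called lower. Its levels in batch 3 were 4.52 and 5.34 CPM in DKO against 10.1 and 22.6 in LCD KO. The call was lost without LCD KO 7 (adjusted p = 0.0777), without DKO 1 (0.332), without DKO 2 (0.121), without the batch term (-1.68, adjusted p = 0.44) and in batch 3 alone (-1.74, adjusted p = 0.136), at log2 fold changes of -1.97 to -2.45 over the libraries left out. The remaining 7 genes did not pass. All 8 estimates were negative, with a median of -0.94 against -4e-05 over all genes. The 8 were chosen together and vary together, so their signs are a description. Fbxo16 turned to 0.164 without the batch term. Leaving out 1 library gave values up to 0.105 for Pxdn and 0.227 for Npl.

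The 7 fell into larger and smaller estimates. Ptprv was at -2.03 ± 0.67 (adjusted p = 0.3), Got1l1 at -1.6 ± 0.44 (0.139) and Fmo6 at -1.39 ± 0.37 (0.126). Got1l1 passed in batch 3 alone (-2.02, adjusted p = 0.0175), where LCD KO was high, and Fmo6 passed with DESeq2 (adjusted p = 0.0231). These 3 and Arntl2 were lower in both DKO libraries than in both LCD KO libraries of batch 3, as were 17.7% of all genes. Estimates nearer 0 were those of Npl (-0.484 ± 0.59), Fbxo16 (-0.345 ± 0.36), Fmo4 (-0.332 ± 0.34) and Pxdn (-0.245 ± 0.34). For these 4 the DKO and LCD KO libraries overlapped, and the smallest adjusted p was 0.896. In batch 3 the ratio of DKO to LCD KO was 0.921 (0.675 to 1.25) for Fmo4, 0.747 (0.515 to 1.08) for Fbxo16, 0.741 (0.558 to 0.979) for Pxdn and 0.612 (0.263 to 1.35) for Npl.

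Against WT, 5 of the 8 genes were called lower in DKO, where 1.52% of all genes were. They were Got1l1 (-2.45 ± 0.45, adjusted p = 0.00177), Arntl2 (-2.22 ± 0.41, adjusted p = 0.00178), Fmo6 (-1.79 ± 0.36, adjusted p = 0.00446), Npl (-2.24 ± 0.56, adjusted p = 0.0218) and Ptprv (-2.27 ± 0.66, adjusted p = 0.0497). Fbxo16 (-0.88 ± 0.36, adjusted p = 0.195), Fmo4 (-0.84 ± 0.33, adjusted p = 0.172) and Pxdn (0.04 ± 0.35, adjusted p = 0.967) did not pass. All 5 calls were lost without DKO 1, 3 calls were left without WT 6 or in batch 3 alone, 2 without the batch term, and Ptprv was lost in 7 of 8 such refits. The WT libraries are those that chose the genes against Dnmt3a KO.

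LCD KO differed from WT by Zp3-Cre, which acts on the floxed Tet3 domain that both carried. Tet3 counts were lower in it (-1.78 ± 0.21 on the log2 scale), and the domain, Cre and this fall cannot be told apart. LCD KO was called lower than WT in 2 of the 8 genes. They were Npl (-1.76 ± 0.3, adjusted p = 0.000238) and Got1l1 (-0.849 ± 0.26, adjusted p = 0.0233), and 9.44% of all genes were called lower. Npl was lower in all 7 LCD KO libraries and in each of the 3 batches, and kept its call in all 13 refits that left out 1 library; with batch 2 or batch 3 alone the estimates were -2.53 (adjusted p = 0.178) and -1.49 (adjusted p = 0.368). Got1l1 was lower in batches 1 and 2 and not in batch 3, where its log2 fold change was 0.11 (adjusted p = 0.945), and its call was lost without WT 1 or 4, LCD KO 1, 3 or 4 or the batch term. The other 6 did not pass, with estimates of 0.289 ± 0.20 for Pxdn, -0.392 for Fmo6, -0.513 for Fmo4, -0.532 for Fbxo16, -0.244 for Ptprv and -0.131 for Arntl2. Within batch 3, LCD KO lay below WT in 5 genes (Npl, Fmo6, Fmo4, Ptprv and Arntl2), as it did in 21.2% of all genes, and above it in Pxdn. Without TMM factors it lay below WT in 3 genes. Of 17 oocyte markers that passed the filter, 7 were called lower in LCD KO and 0 higher, and their part in these differences was not tested.

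The HD mutant did not share the low Npl of LCD KO. Npl was higher in it than in LCD KO by 1.95 ± 0.41 (adjusted p = 0.00798), Arntl2 by 3.55 ± 0.36 (adjusted p = 2.34e-07), and Pxdn was lower by a log2 fold change of -1.01 ± 0.27 (adjusted p = 0.046); 2.08% of all genes were called in either direction. The Pxdn call was lost without the batch term (-0.027, adjusted p = 0.98) and in 7 of 10 refits that left out 1 library, and the Npl call in 3, without LCD KO 4, LCD KO 5 or HD mutant 1. Against WT, Arntl2 alone of the 8 was called (3.41 ± 0.38, adjusted p = 1.5e-06), where 7.83% of all genes were called. Both Arntl2 differences rest on the 3 low libraries of batch 2. Without the batch term, which sets HD mutant beside WT and LCD KO of all batches, they were 0.381 (adjusted p = 0.767) against WT and 0.762 (adjusted p = 0.543) against LCD KO. HD mutant and WT libraries overlapped in all 8 genes.

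**Figure D4:**
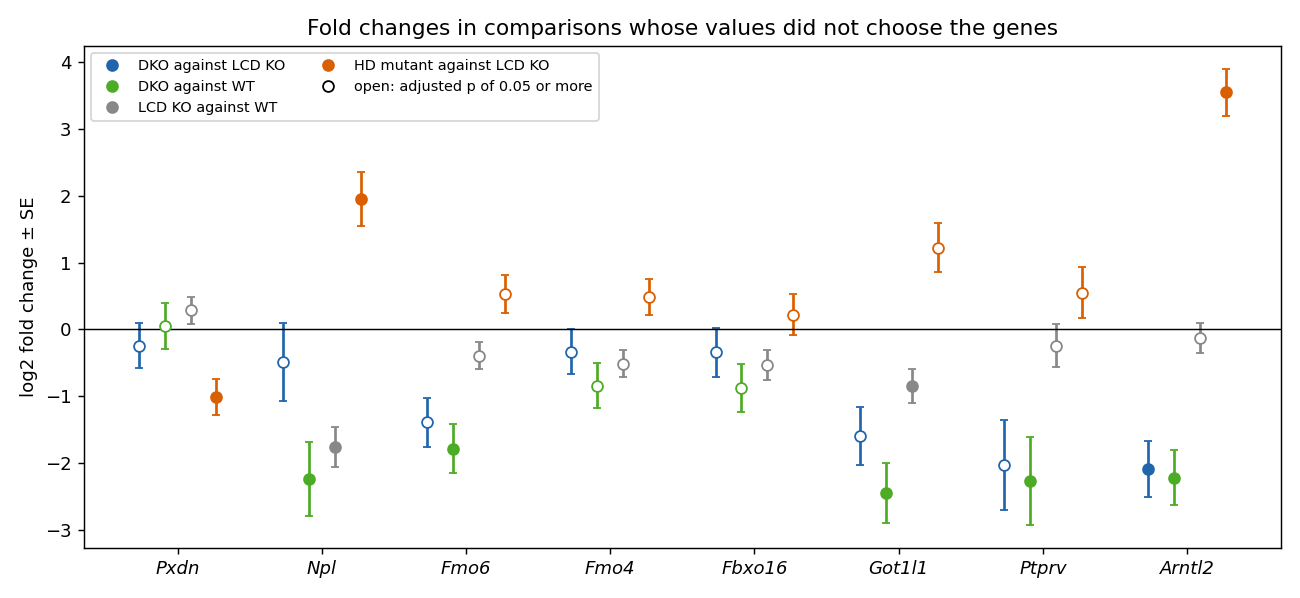
Log2 fold change ± SE (vertical axis) of each gene (horizontal axis) in 4 comparisons outside the contrasts that chose the genes; filled points have an adjusted p below 0.05 by edgeR's quasi-likelihood test over all genes. Arntl2 is the 1 filled point of DKO against LCD KO, and Pxdn of DKO against WT lies at 0.04.

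In the pathway lists, which leave out the 8, 1 gene was called in DKO against LCD KO, and it was Dnmt3a. Over all genes, 0.314% were called in either direction in that comparison, 0.755% in Dnmt3a KO and 1.37% under the Tet3 KO label. With shares this low, 0 calls in a list below says little about that list. Beside Pxdn, 16 genes of collagen IV and basement membrane were measured, and 1 fell in Dnmt3a KO and under the Tet3 KO label: Lamc1, a laminin chain, by -1.18 ± 0.27 (adjusted p = 0.0222) and -1.06 ± 0.26 (adjusted p = 0.0303) on the log2 scale. It was not called in DKO against WT (-0.554 ± 0.25, adjusted p = 0.246). Of 2 other haem peroxidases measured, 0 were called in any comparison. Beside Npl, 12 genes of sialic acid metabolism were measured, and 1 rose in DKO against WT: Gne, which starts sialic acid synthesis (1.16 ± 0.27, adjusted p = 0.0141). Over all genes, 2.27% were called higher in DKO against WT, the share beside which this count and those of Fbxo3 and Bhlhe40 below stand. Gne also rose in LCD KO (0.612 ± 0.18, adjusted p = 0.0204). Beside Fmo4 and Fmo6, Fmo5, another flavin monooxygenase, was not called in Dnmt3a KO (0.925 ± 0.42, adjusted p = 0.344), under the Tet3 KO label (0.934 ± 0.41, adjusted p = 0.445) or in DKO against LCD KO (-0.42 ± 0.45, adjusted p = 0.902).

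Beside Got1l1, 0 of 7 genes of the aspartate aminotransferases and the malate-aspartate shuttle were called in Dnmt3a KO, under the Tet3 KO label or in DKO against WT or LCD KO. Got1, its closest relative, stood at -0.1 ± 0.25 in Dnmt3a KO. Of 30 other F-box and SCF genes, 1 rose in DKO against WT, Fbxo3 (1.04 ± 0.25, adjusted p = 0.0156), and 0 were called in Dnmt3a KO. Of 15 receptor tyrosine phosphatases, 0 were called in Dnmt3a KO and 1 fell under the Tet3 KO label (adjusted p = 0.0202). This was Ptprq, with 0 counts in both of those libraries, 21 and 12 in WT of batch 3 and 11 and 0 in Dnmt3a KO. Of 19 other clock genes, 1 rose in DKO against WT, the repressor Bhlhe40 (1.16 ± 0.31, adjusted p = 0.0284), and 0 were called in Dnmt3a KO. Arntl, the paralog of Arntl2, and their partners Clock and Npas2 stood at 0.179 ± 0.20, 0.244 ± 0.25 and -0.112 ± 0.32 there. Of 22 measured genes of the DNA methylation machinery, Dnmt3a was the 1 called in Dnmt3a KO, under the Tet3 KO label and in DKO against LCD KO, and Dnmt3a and Tet3 fell in DKO against WT. Dnmt3l, whose product partners Dnmt3a, stood at -0.739 ± 0.23 (adjusted p = 0.138) in Dnmt3a KO.

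The measured genes on either side of the 8 were examined, up to 3 per side and 42 in all. In Dnmt3a KO 1 was called lower and 0 higher, and the same count held under the Tet3 KO label, against 0.322% and 0.822% of all genes called lower; the medians were 0.11 and 0.084. The called gene was E330020D12Rik in both cases, a processed transcript 3 measured genes from Npl. It had 30.1 and 22.7 CPM in Dnmt3a KO and 12.9 and 16.6 under the Tet3 KO label, against 80.9 and 67.6 in WT of batch 3. The log2 fold changes were -1.5 ± 0.29 (adjusted p = 0.0075) and -2.33 ± 0.31 (adjusted p = 3.35e-05). Like most of the 8 it was less low in DKO, at 46.2 and 58.4 CPM. DKO did not pass against LCD KO (-1.13 ± 0.28, adjusted p = 0.084) or against WT (-0.509 ± 0.28, adjusted p = 0.349). In LCD KO against WT it was called higher (0.621 ± 0.17, adjusted p = 0.0107), as were 8.89% of all genes, where 7 of the 8 had negative estimates. The Dnmt3a KO call was lost without Dnmt3a KO 2 (adjusted p = 0.183), and without the batch term the adjusted p was 0.231 and, under the Tet3 KO label, 0.0529.

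In DKO against WT 2 of the 42 neighbours were called lower (1.52% of all genes), and against LCD KO 0 were (0.0763%). One was Rgsl1, next to Npl (-1.39 ± 0.36, adjusted p = 0.0243), at 4.52 and 5.34 CPM in DKO against 14.4 and 14.2 in WT of batch 3. It was not called in Dnmt3a KO (-0.235 ± 0.32, adjusted p = 0.811), where Npl had 0 counts. The other was Smco2, which follows Arntl2 and encodes a membrane protein. It had 0 counts in both DKO libraries and in both labelled Tet3 KO, 0 and 1 in Dnmt3a KO, and 10 and 9 in WT of batch 3. Its adjusted p was 0.0488 in DKO against WT, and the call was lost in all 8 refits that left out 1 library, without the batch term and in batch 3 alone. In batch 2, Smco2 had 3 counts in WT 4 and 1 and 0 in LCD KO 4 and 5, against 24, 25 and 7 in HD mutant 1 to 3. HD mutant was higher than WT by 3.4 ± 0.94 (adjusted p = 0.027) and than LCD KO by 3.94 ± 0.89 (adjusted p = 0.0151); without the batch term these were 0.763 (adjusted p = 0.613) and 1.52 (adjusted p = 0.388). Scaled to depth, Smco2 stood at 3.78 and 3.7 CPM in HD mutant 1 and 2, while HD mutant 3, at 0.867, was close to WT 4 (0.537). The low and high libraries of Smco2 in batch 2 were thus those of Arntl2 except for HD mutant 3. The 2 genes do not overlap in GENCODE.

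**Figure D5:**
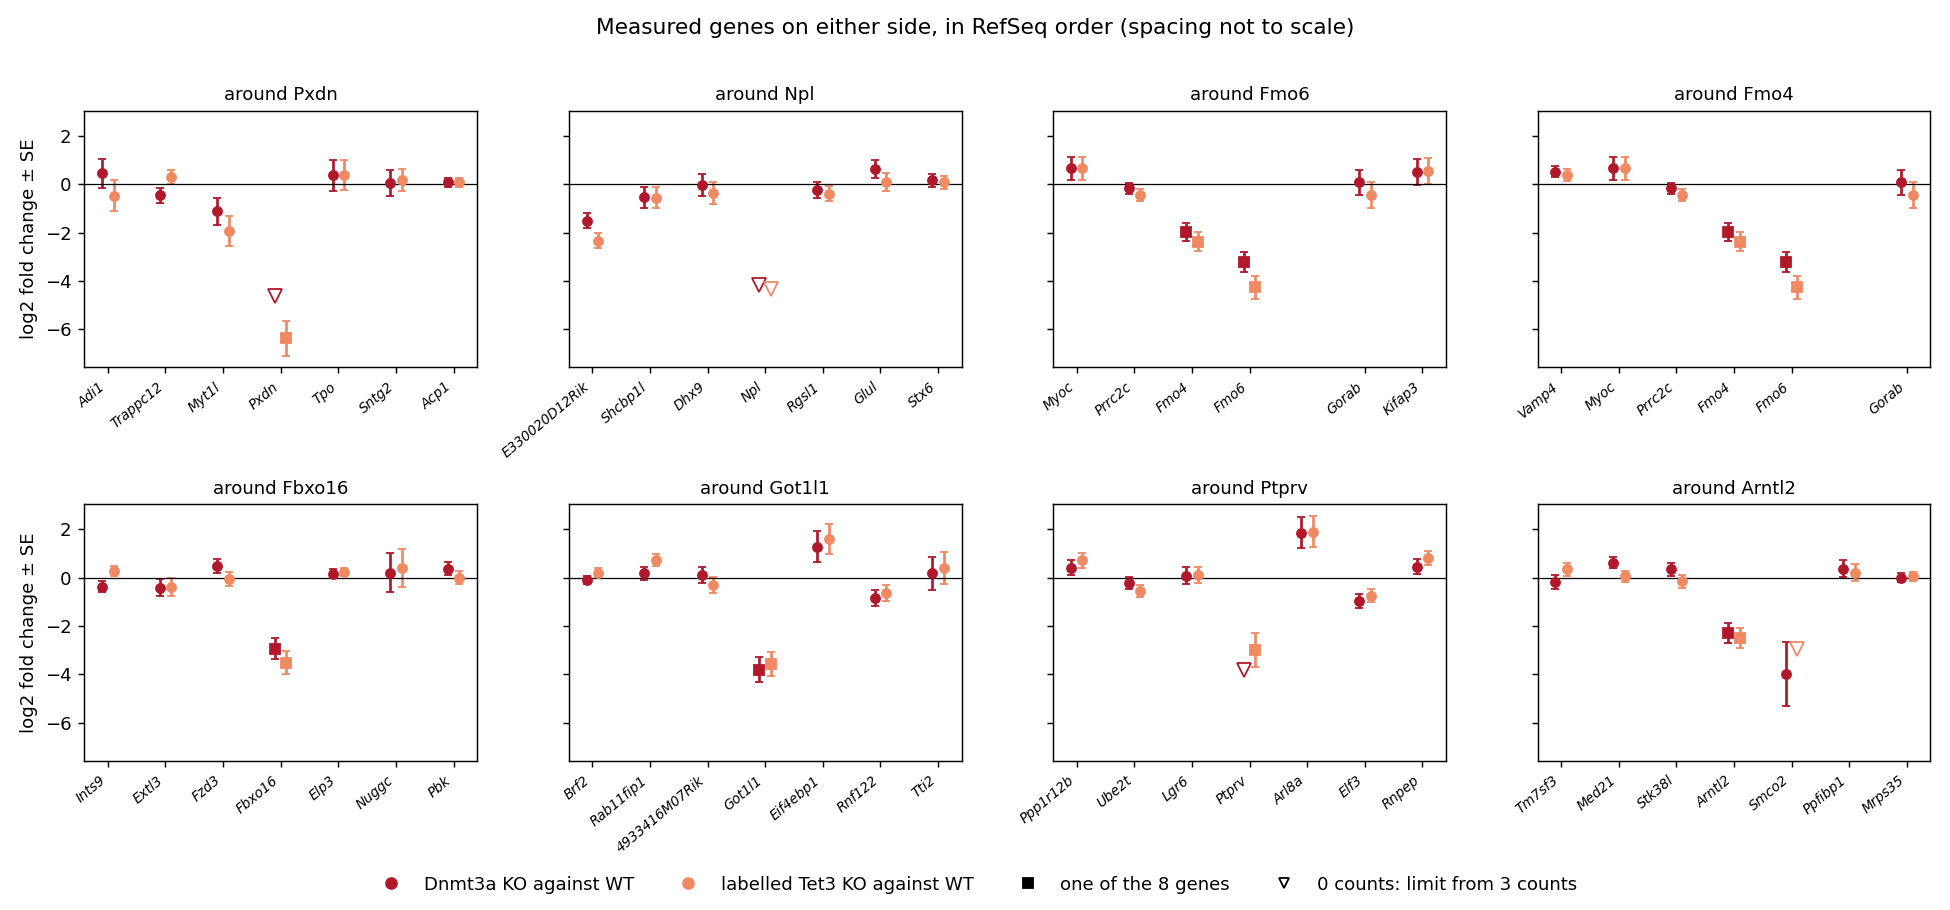
Log2 fold change ± SE (vertical axis) against WT of each of the 8 genes (squares) and the measured genes on either side in RefSeq order (circles, spacing not to scale), for Dnmt3a KO and the libraries labelled Tet3 KO; triangles mark 0 counts at the limit of 3 counts. Most circles lie near 0. E330020D12Rik beside Npl (-1.5 and -2.33), Myt1l beside Pxdn (-1.12 and -1.93, not called) and Smco2 beside Arntl2 lie lower. Arl8a beside Ptprv (1.87 and 1.91) and Eif4ebp1 beside Got1l1 (1.29 and 1.59) lie higher and were not called.

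Among the 10 libraries of batch 3, which include those that chose the genes, all pairs of the 8 varied in the same direction. Pearson's r of log2 CPM between pairs ran from 0.645 (Pxdn and Arntl2) to 0.959 (Npl and Fmo4), as a description over 10 libraries that share the groups. Among all other tested genes, the 2 with the highest r were named for each. Pxdn was closest to Rwdd2a (0.979) and Rnf34 (0.959), and Rwdd2a was also closest to Fbxo16 (0.966), followed by Pebp1 (0.955). Rwdd2a had 51.3 and 56 CPM in DKO against 62.7 and 58.5 in WT, with 14.3 and 15.8 in Dnmt3a KO and 15 and 12.7 under the Tet3 KO label. Low levels in Dnmt3a KO and near-WT levels in DKO, as for Pxdn, come with its choice by correlation over these libraries. Npl was closest to Zbtb37 (0.977) and Dzip1l (0.97), and Fmo4 to Lcp1, an actin-bundling protein (0.988), and Tpm2, a tropomyosin (0.953).

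Fmo6 was closest to Rad51b, a factor of homologous recombination (0.958), and Prss37 (0.957). Rad51b had 35.6 and 15.2 CPM in Dnmt3a KO, 19.8 and 13.9 under the Tet3 KO label and 23.1 and 68 in DKO, against 200 and 137 in WT. LCD KO had 136 and 92.3 CPM. Low levels in all 6 libraries low in Dnmt3a, as for Fmo6, again come with the choice by correlation. Got1l1 was closest to Atp6v1b2, a subunit of the proton pump of lysosomes (0.976), and Lamc1 (0.976), the basement membrane gene called above. The fall of Lamc1 and its r with Got1l1 share the libraries of Dnmt3a KO and of the Tet3 KO label, so neither adds to the other. Ptprv was closest to Cdc25b, a phosphatase that drives the resumption of meiosis (0.927), and 1700030K09Rik (0.922). Arntl2 was closest to Tsc22d1 (0.954) and Tpm4, another tropomyosin (0.941). With Spearman's rho, 6 of these 16 pairs were again among the 2 closest.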

How the data were processed

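The members and gene lists were chosen with earlier results of these data known. The authors deposited whole read counts for each gene symbol. Per the submitters' processing notes, mm9, HISAT2 2.1.0, featureCounts 1.6.4 and Trim Galore 0.5.0 were used; which annotation and strand setting were applied is not given in the sources used here. Of 24542 features, 92 spike-in sequences (1 count in all) were removed. Of 26 columns, 24 were distinct. The labels call the pools biological replicates and name the batches: WT 1 to 3 and LCD KO 1 to 3 form batch 1; WT 4, LCD KO 4 to 5 and HD mutant 1 to 3 batch 2; the rest, except HD mutant 4 and 5, batch 3. Those 2 had no stated batch and entered no test.

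Counts were fitted with edgeR 4.0.16 in R 4.3.3 (quasi-likelihood, robust, TMM factors, filterByExpr, group and batch, 22 libraries, 14 residual degrees of freedom), and a call was a Benjamini-Hochberg adjusted p below 0.05 over 11794 genes. The script was tested on simulated counts. Fold changes from the fit use all batches and can differ from ratios in batch 3. Those ratios use summed counts with exact 95% intervals, and folds against 0 read it as 3 counts over a group. Alternatives were DESeq2 1.42.0, its size factors, no filter, no batch term, a replicate block, 1 batch alone and leaving out each library; fits without batch 2 for DKO and in each batch for LCD KO were added after seeing the data.

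Named were the 8 genes, Dnmt3a, Tet3, list genes called in a group low in Dnmt3a, close paralogs, neighbours up to 3 per side and the 2 genes with the highest Pearson correlation. Promoters are from RefSeq on GRCm38.p6, and no other coordinates are printed because the counts are on mm9. The values of 1 gene beside the members are not reported here, in the text or the figures.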

Additional observations from a re-analysis of the deposited data

Results flagged for a closer look

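Among 24 groups of 4 to 10 libraries examined over the 8 genes, 3 held a library far from the rest by Dixon's test. Chance gives about 1 in 20 where libraries are independent and share 1 spread. These groups mix batches or hold libraries without a stated batch, and the 8 genes vary together, so that rate need not hold here. Pxdn was 46.9 CPM in WT 4, the 1 WT library of batch 2. Fmo6 was 34.1 CPM in HD mutant 4. Fbxo16 was 13.9 CPM in LCD KO 6.

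The comparisons across the Tet3 domain, LCD KO against WT and DKO against Dnmt3a KO, went in opposite directions for 4 genes of batch 3. Only the first also differs in Cre. LCD KO lay below WT, at ratios of 0.357 for Npl, 0.594 for Fmo6, 0.53 for Fmo4 and 0.65 for Ptprv, while both DKO libraries lay above both Dnmt3a KO libraries. The difference was not tested, because Dnmt3a KO against WT chose the genes, and that choice favours both directions.

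LCD KO also went in opposite directions against WT in different batches, which was not tested and rests on 1 WT library in batch 2. Fmo4 was lower in all LCD KO libraries of batch 1, higher in those of batch 2 (mean 21.3 CPM) and lower in those of batch 3 (mean 12.7 CPM). Ptprv was higher in batch 2 and lower in batch 3 (mean 3.44 CPM), and so was Arntl2 (mean 16.3 CPM in batch 3). Without TMM factors, Ptprv of batch 3 overlapped, at 5.98 CPM in LCD KO 7 against 5.28 in WT 5. Arntl2 then stood at 27 CPM in both LCD KO 7 and WT 6.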

How the results depend on the processing

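Of the 8 genes, the number called lower in DKO against LCD KO was 1, and it was 2 with DESeq2, 3 with no filter, 0 without the batch term and 0 with the replicate block, and 0 to 1 without a library. Against WT it was 5, and 2 without the batch term, 1 with the block, 3 in batch 3 alone and 0 to 5 without a library. In LCD KO against WT it was 2, and 1 without the batch term, 0 in batch 2 alone, 0 in batch 3 alone and 1 to 3 without a library. In HD mutant against LCD KO 2 were higher and 1 lower; without the batch term, with the block and in batch 2 alone 1 was higher and 0 lower each time, and without a library 1 to 2 were higher and 0 to 1 lower. In HD mutant against WT 1 was higher, 0 without the batch term. Without TMM factors, DKO lay below LCD KO of batch 3 in 5 genes in place of 4.

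Calls over all genes moved with the same settings. DKO against LCD KO gave 37, and 72 with DESeq2, 122 with no filter, 13 without the batch term, 12 with the block, 57 without batch 2 and 12 to 41 without a library. DKO against WT gave 447, and 672 with no filter, 133 with the block, 179 in batch 3 alone and 164 to 471 without a library. Dnmt3a KO against WT gave 89, and 185, 311, 32 and 54 with DESeq2, no filter, no batch term and the block, 54 in batch 3 alone and 26 to 116 without a library. The label Tet3 KO against WT gave 162, and 284, 60 and 32 with no filter, no batch term and the block, and 55 to 172 without a library. DKO against Dnmt3a KO gave 235, and 378, 449, 20 and 152 with DESeq2, no filter, no batch term and the block, and 78 to 115 without a library. LCD KO against WT gave 2162, and 544 without the batch term, 12 in batch 2 and 88 in batch 3, and 1685 to 2309 without a library. HD mutant against WT gave 923, and 365 without the batch term, 220 with the block, 40 in batch 2 and 384 to 1114 without a library. HD mutant against LCD KO gave 245, and 410, 96 and 35 with no filter, no batch term and the block, 102 in batch 2 and 92 to 277 without a library.

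Signs turned for Fbxo16 in DKO against LCD KO (0.164 without the batch term, 0.178 with the block) and Pxdn in DKO against WT (-0.63 and -0.437). In LCD KO against WT they turned for Arntl2 in batch 1 (0.211) and batch 2 (0.351), for Fmo4 (0.142) and Ptprv (0.663) in batch 2 and for Got1l1 in batch 3 (0.11). Leaving out 1 library gave -0.474 to 0.396 for Pxdn in DKO against WT, -0.765 to 0.105 for Pxdn and -1.56 to 0.227 for Npl in DKO against LCD KO, -0.271 to 0.072 for Arntl2 in LCD KO against WT and -0.238 to 0.566 for Arntl2 in DKO against Dnmt3a KO. The causes were not tested. The deviations of same-numbered libraries correlated at -0.0486 to -0.017 in 3 pairs of batch 1 and at -0.32 to 0.272 in batch 3, where Dnmt3a KO and the Tet3 KO label gave 0.272 for both numbers, which mirror each other in groups of 2. Not every pair was above 0.1, so the numbers were not taken to pair the samples. Depth limits Npl and Ptprv most, with at most 8 counts in any DKO library.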
